A study of Homo sapiens with 16 samples.

Results

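The genes described here are 10 members of epidermal growth factor receptor (EGFR) signalling, measured in 2 human lung cancer cell lines. They comprise 3 receptors (EGFR, ERBB2 and ERBB3), 4 ligands (AREG, EREG, HBEGF and TGFA) and 3 feedback inhibitors of the pathway (DUSP6, SPRY2 and SPRY4). They were taken by gene symbol from a fixed list that was chosen with earlier results of these data known. All 10 were found among the 18227 genes of the tables.

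Receptors of this family are tyrosine kinases at the cell surface that act in pairs. Soluble ligands, released from membrane-bound precursors by proteases, bind EGFR or ERBB3, while ERBB2 has no known ligand and ERBB3 has little kinase activity and signals through its partner. Active receptors recruit adaptors that switch on RAS and, through RAF and MEK, the kinase ERK. ERK activity induces its own brakes, among them DUSP6, a phosphatase that dephosphorylates ERK in the cytoplasm, and the Sprouty proteins SPRY2 and SPRY4, which act upstream of ERK. In lung epithelium the pathway drives growth and repair, and it is commonly activated in lung cancer.

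The study compared ZC3H12A knockout with wild-type cells of A549 and H2023, both established lines of non-small cell lung cancer (NSCLC). ZC3H12A encodes Regnase-1, an endoribonuclease that degrades selected mRNAs. Normal culture lasted 3 days. The second condition was a stem-cell-enriching culture of 7 days that the titles abbreviate as Onco and that is called oncosphere culture here, so that culture type and days in culture change together. There are 8 groups with 2 libraries in each. The A549 groups are wild type in normal culture, clone g2-3 (Clone2-2) labelled knockout in normal culture, wild type in oncosphere culture and the same clone in oncosphere culture. The H2023 groups follow the same scheme with clone g2-1 (Clone2-2). Each knockout genotype is thus represented by 1 clone per line, so the edit and other features of the clone cannot be told apart in a comparison with wild type. The labels do not say that the 2 libraries of a group came from separate cultures, so p-values measure the spread between these libraries, which may be technical.

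Levels are TPM, a measure of transcript abundance scaled for gene length and for the total of the library. TPM keeps no record of depth, so the depth of single libraries is unknown, but the authors' mean normalised counts summed to between 20453740 and 22760512 per table. The replicates of a group had r between 0.983 and 0.992 across genes. Mitochondrially encoded genes held between 10.3% and 18.7% of the total in normal and between 19.5% and 25.6% in oncosphere culture. All 5 epithelial markers of the list used were measured, with summed levels of 1450.09 to 10676.66 TPM, although EPCAM (0.37 to 51.02 TPM) and KRT19 (0.29 to 797.79 TPM) were near 0 in some libraries. The sum is mainly that of KRT8 (765.43 to 5982.21 TPM) and KRT18 (665.75 to 4515.49 TPM), while CDH1 lay between 12.73 and 84.49 TPM. Of the other lists, fibroblast markers (2 of 4 measured) summed to 1.13 to 8.63 TPM, the endothelial PECAM1 (1 of 3 measured) reached 2.76 TPM, and the macrophage and lysosome marker CD68 (1 of 4 immune markers measured) lay between 28.7 and 178.89 TPM.

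ZC3H12A itself (chromosome 1, 37474552 to 37484379 in GRCh38) was examined first, as the target of the knockout. In A549 normal culture it had 30.72 and 34.88 TPM in wild type and 16.9 and 19.93 TPM in those labelled knockout. In the remaining comparisons the libraries labelled knockout were higher: 60.17 and 55.6 against 48.48 and 49.17 TPM in A549 oncosphere culture, 41.48 and 41.54 against 26.78 and 29.85 TPM in H2023 normal culture, and 94.61 and 69.18 against 32.54 and 26.41 TPM in H2023 oncosphere culture. Its mRNA was therefore higher in the libraries labelled knockout in 3 of 4 comparisons. By the limma test described below, the rise in H2023 oncosphere culture passed (1.43, adjusted p = 4.50e-04). Those in A549 oncosphere and H2023 normal culture did not (0.24 and 0.54, limma, adjusted p = 0.304 and 0.0835). The fall in A549 normal culture passed (-0.80, limma, adjusted p = 0.00387). The level of an mRNA does not show whether its protein is lost, and libraries are called by their label throughout.

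Differences are given on the scale of log2(TPM + 1), which understates changes of low genes. They were tested with limma in 1 fit of the 8 group means over all 16 libraries, and p-values were adjusted over the 18227 genes. A gene is called higher or lower here where its adjusted p was under 0.05. In bulk RNA, fewer cells that express a gene and less of its RNA per cell cannot be told apart.

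**Figure D1:**
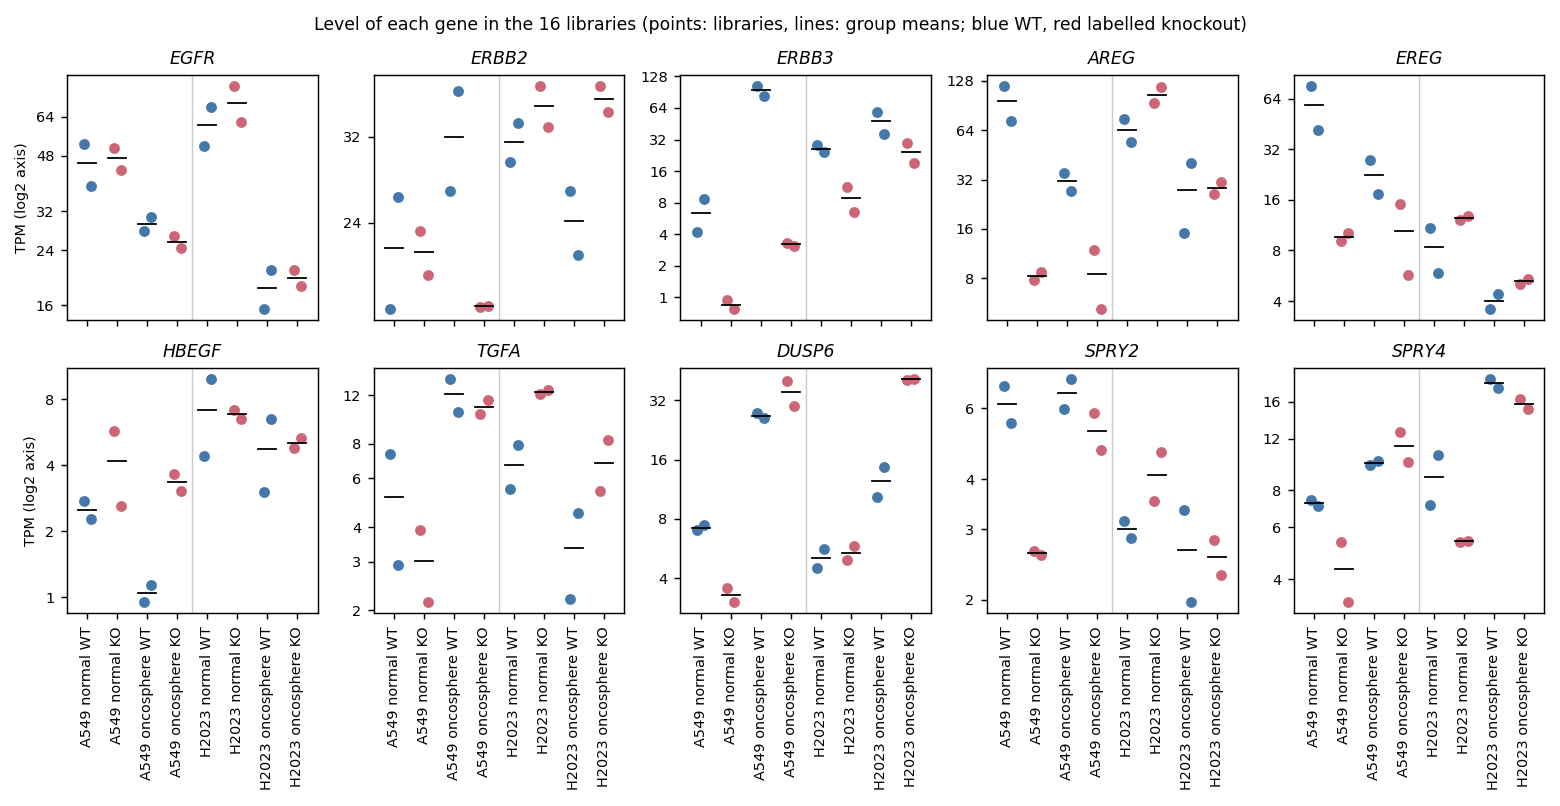
Level of each of the 10 genes in every library, as TPM on a log2 axis that differs between panels. Points are libraries (blue wild type, red labelled knockout), short lines are means of the 2 libraries of a group, and the grey line separates A549 from H2023. ERBB3 spans the widest range, from 0.77 to 104.37 TPM, and DUSP6 is higher in oncosphere than in normal culture in both lines.

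The comparison of libraries labelled knockout with wild type describes how 1 clone per line, labelled ZC3H12A knockout, differs from wild type. In normal culture of A549, 6 of the 10 genes were lower and none was higher: the receptor ERBB3, the ligands AREG and EREG, and all 3 feedback genes. Over all genes 17.7% were called there, 7.32% as higher and 10.4% as lower, and the median difference was -0.80 over the 10 genes and -0.03 over all genes. In A549 oncosphere culture 3 were lower (ERBB2, ERBB3 and AREG) and none was higher, against a background of 20.7% of genes called, 10.2% as higher and 10.5% as lower. H2023 gave 1 lower gene in normal culture, ERBB3, where 3.00% of genes were called (1.03% higher and 1.97% lower), and 1 higher gene in oncosphere culture, DUSP6, where 5.56% were called (3.17% higher and 2.40% lower). Of the genes called in the last comparison 56.9% were higher, and 35.6% were with values centred on the median of each library. The libraries of the groups compared did not overlap for 6, 8, 6 and 6 of the 10 genes in this order, against 61.7%, 60.5%, 50.6% and 47.5% of all genes. Because the 10 genes were chosen with earlier results known, these counts beside all genes are a description and not a test.

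Other features of the libraries moved with these comparisons. The summed epithelial markers, mainly KRT8 and KRT18, were at 1450.09 to 2522.87 TPM in the A549 normal-culture libraries labelled knockout and at 7416.84 to 7626.13 TPM in wild type. In H2023 they lay the other way, with 9816.33 to 10676.66 against 5886.68 to 7298.87 TPM in normal culture and 6553.26 to 7086.59 against 3419.7 to 3445.66 TPM in oncosphere culture. In A549 oncosphere culture they overlapped, at 4994.65 to 7194.83 against 5230.19 to 6570.26 TPM, while CD68 was at 29.66 to 44.49 against 117.45 to 178.89 TPM. The part of these differences in the results was not tested.

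**Figure D2:**
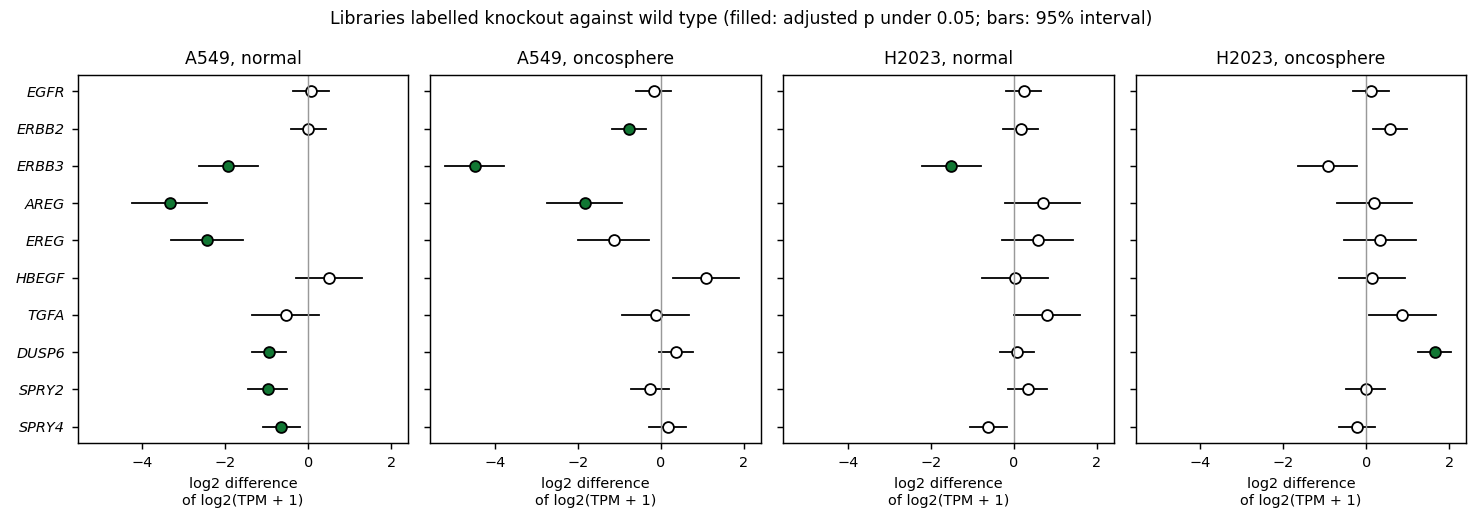
Difference between libraries labelled knockout and wild type for the 10 genes, in units of log2(TPM + 1), in each line and culture. Points are estimates, bars are 95% intervals, and filled points have an adjusted p under 0.05; ERBB3 lies below 0 in all 4 panels, from -4.49 to -0.93.

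Among the receptors, ERBB3 (chromosome 12, 56076799 to 56103505, + strand), which binds neuregulins and couples to PI3-kinase, was lower in the libraries labelled knockout of both lines. In A549 normal culture it had 4.19 and 8.64 TPM in wild type and 0.94 and 0.77 TPM in those labelled knockout. In A549 oncosphere culture it had 104.37 and 84.09 TPM in wild type, its highest levels of all, and 3.33 and 3.10 TPM in those labelled knockout. The mean level was thus 7.5-fold lower in normal culture and 29.3-fold lower in oncosphere culture, and no libraries of the groups compared overlapped. The differences were -1.93 with a standard error (SE) of 0.33 and -4.49 with an SE of 0.33 (limma, adjusted p = 0.00196 and 3.33e-06). The drop was larger in oncosphere culture, by -2.56 with an SE of 0.46 (limma, adjusted p = 0.00698), a contrast in which 9.71% of all genes were called. The fold changes in the authors' deposited tables are -3.13 and -4.89, and their difference of -1.76 (adjusted p = 0.00359) is less negative than the value on the log2(TPM + 1) scale.

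In H2023 normal culture ERBB3 had 28.28 and 24.23 TPM in wild type and 11.23 and 6.50 TPM in those labelled knockout, a difference of -1.50 with an SE of 0.33 (limma, adjusted p = 0.0292). That call was lost on leaving out any 1 of the 4 libraries, with -1.40 without wild-type replicate 1 (adjusted p = 0.109), -1.61 without wild-type replicate 2 (0.13), -1.86 without knockout replicate 1 (0.0542) and -1.15 without knockout replicate 2 (0.232), and in a fit of these 4 libraries alone (adjusted p = 0.159). The authors' deposited table gives a log2 fold change of -1.98 (adjusted p = 4.58e-18). In H2023 oncosphere culture ERBB3 had 58.86 and 36.40 TPM in wild type and 29.69 and 19.05 TPM in those labelled knockout, a difference of -0.93 that did not pass in limma (adjusted p = 0.119), while the authors' deposited table gives -1.18 (adjusted p = 0.00229). The effect in normal culture was not shown to differ between the lines (0.43 with an SE of 0.46, limma, adjusted p = 0.599). In oncosphere culture it differed by 3.56 with an SE of 0.46 (limma, adjusted p = 3.72e-04), with 16.3% of all genes called in that contrast.

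EGFR (chromosome 7, 55019021 to 55211628, + strand), the receptor of all 4 ligands, did not pass in any of the 4 knockout comparisons, with differences from -0.18 to 0.24. It had 52.58 and 38.41 TPM in wild type and 51.07 and 43.36 TPM in those labelled knockout in A549 normal culture, and 51.53 and 68.72 against 80.45 and 61.45 TPM in H2023 normal culture. The 95% interval of the difference was -0.37 to 0.49 in the former. ERBB2 (chromosome 17, 39687914 to 39730426, + strand), the co-receptor, was lower in the libraries labelled knockout in A549 oncosphere culture, with 18.11 and 18.20 TPM against 26.72 and 37.38 TPM, a difference of -0.77 with an SE of 0.19 (limma, adjusted p = 0.0132). This call was lost without wild-type replicate 2 (-0.53, adjusted p = 0.116), knockout replicate 1 (-0.76, 0.0589) or knockout replicate 2 (-0.77, 0.0673) and in a fit of the 4 libraries alone (adjusted p = 0.0535). In H2023 oncosphere culture ERBB2 lay the other way, with 26.73 and 21.54 TPM in wild type and 37.90 and 34.77 TPM in those labelled knockout, which did not pass by itself. The effects in the lines differed by 1.35 with an SE of 0.27 (limma, adjusted p = 0.00542).

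Of the ligands, amphiregulin (AREG) and epiregulin (EREG) are neighbours on chromosome 4. EREG spans 74365143 to 74388751 and AREG 74445134 to 74455009, both on the + strand, with 56382 bases between them. Because their levels moved together, the 250 bases before each RefSeq start site (GRCh38.p14) are shown, AREG at chr4:74444886-74445135 and EREG at chr4:74364895-74365144, with matches to a cyclic AMP response element (CRE, TGACGTCA) and to a TATA box (TATAAA) in capitals.
AREG: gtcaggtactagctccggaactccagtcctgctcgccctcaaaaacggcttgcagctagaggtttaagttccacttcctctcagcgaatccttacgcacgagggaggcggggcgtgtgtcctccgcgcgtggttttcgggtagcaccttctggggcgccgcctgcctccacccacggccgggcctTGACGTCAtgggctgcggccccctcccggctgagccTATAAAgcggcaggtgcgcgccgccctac
EREG: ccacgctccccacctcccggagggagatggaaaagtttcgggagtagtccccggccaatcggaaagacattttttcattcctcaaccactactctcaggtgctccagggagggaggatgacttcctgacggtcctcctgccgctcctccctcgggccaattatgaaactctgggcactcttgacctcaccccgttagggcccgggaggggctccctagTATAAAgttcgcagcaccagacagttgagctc
Both windows hold a TATA box, 29 bases before the start in AREG and 32 in EREG, and AREG alone of the pair holds the CRE, 65 bases before its start. Of 35116 promoter windows of this length, 10.7% hold TATAAA and 1.65% hold TGACGTCA on either strand. An AP-1 site (TGANTCA, in 6.57% of windows) and a CArG box, the site of serum response factor (1.16%), were searched on both strands too and have no match in either window, while a GC box (GGGCGG, 42.6%) matched once in AREG. These matches are descriptions of the sequence and not evidence of binding. Windows were found for 9 of the 10 genes, and no other gene of the set held the CRE.

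AREG, a low-affinity ligand of EGFR with roles in epithelial repair, was lower in the libraries labelled knockout of A549 in both cultures. In A549 normal culture it had 119.38 and 72.33 TPM in wild type and 7.84 and 8.69 TPM in those labelled knockout. In A549 oncosphere culture it had 35.24 and 27.13 TPM in wild type and 11.89 and 5.18 TPM in those labelled knockout. All 4 A549 libraries labelled knockout lay below all 4 wild-type libraries, and the means were 11.6-fold and 3.65-fold lower. The differences were -3.34 with an SE of 0.42 in normal culture and -1.84 with an SE of 0.42 in oncosphere culture (limma, adjusted p = 2.77e-04 and 0.00797). The oncosphere call was lost without wild-type replicate 1 (-1.66, adjusted p = 0.0649) or knockout replicate 2 (-1.31, adjusted p = 0.0957).

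In H2023 AREG was not lower. In normal culture it had 74.32 and 54.44 TPM in wild type and 93.06 and 116.60 TPM in those labelled knockout, which did not pass in limma, while the authors' deposited table gives a log2 fold change of 0.70 (adjusted p = 0.00584). In oncosphere culture 15.05 and 40.37 TPM in wild type bracketed 26.05 and 31.06 TPM in those labelled knockout. The effect differed between the lines by 4.05 with an SE of 0.59 in normal culture (limma, adjusted p = 0.00149), where 12.1% of all genes were called, and by 2.03 in oncosphere culture (limma, adjusted p = 0.0345). The latter was lost on leaving out any of 6 libraries, with 1.85, 2.21 and 1.50 without A549 wild-type replicate 1, A549 wild-type replicate 2 and A549 knockout replicate 2, and 1.35, 2.15 and 1.91 without H2023 wild-type replicate 1, H2023 knockout replicate 1 and H2023 knockout replicate 2 (limma, adjusted p from 0.051 to 0.139).

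EREG, a ligand that activates EGFR and ERBB4, followed AREG in A549. In normal culture it had 76.75 and 41.65 TPM in wild type and 9.16 and 10.14 TPM in those labelled knockout, a 6.13-fold lower mean and a difference of -2.44 with an SE of 0.40 (limma, adjusted p = 0.00157). In oncosphere culture 27.77 and 17.30 TPM stood against 15.12 and 5.69 TPM, which did not overlap but did not pass (-1.14, limma, adjusted p = 0.061). In H2023 EREG was low, between 3.57 and 12.83 TPM in all 8 libraries, and did not pass in either culture. Its effect in normal culture differed between the lines by 3.01 with an SE of 0.56 (limma, adjusted p = 0.00539).

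HBEGF and TGFA, which also activate EGFR, did not pass in any knockout comparison in limma. HBEGF had 0.95 and 1.14 TPM in A549 oncosphere wild type, its lowest levels, and 3.64 and 3.06 TPM in those labelled knockout, a difference of 1.09 (limma, adjusted p = 0.0543). The authors' deposited table gives 1.62 there (adjusted p = 9.59e-04). TGFA in H2023 had 5.51 and 7.90 TPM in wild type and 12.08 and 12.52 TPM in those labelled knockout in normal culture, and 2.20 and 4.51 against 5.39 and 8.24 TPM in oncosphere culture. Neither passed in limma, and the authors' deposited table calls the former (0.75, adjusted p = 0.0241).

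All 3 feedback genes were lower in A549 normal culture, and none of them was called lower in the other comparisons. DUSP6 (chromosome 12, 89347232 to 89353271, - strand) had 7.00 and 7.47 TPM in wild type and 3.56 and 3.03 TPM in those labelled knockout, a difference of -0.94 with an SE of 0.19 (limma, adjusted p = 0.00495). SPRY2 (chromosome 13, 80335976 to 80340951, - strand) had 6.83 and 5.51 TPM against 2.65 and 2.58 TPM, a difference of -0.98 with an SE of 0.21 (limma, adjusted p = 0.00863). SPRY4 (chromosome 5, 142310427 to 142326455, - strand) had 7.45 and 7.06 TPM against 5.33 and 3.34 TPM, a difference of -0.65 with an SE of 0.20 (limma, adjusted p = 0.0441). Wild-type and knockout-labelled libraries did not overlap for any of the 3. The SPRY2 call was lost without wild-type replicate 1 (-0.85, adjusted p = 0.0805) or knockout replicate 2 (-0.97, adjusted p = 0.054). That of SPRY4 held only without A549 normal knockout replicate 1, either H2023 normal wild-type library or either A549 oncosphere knockout library. Over the 16 libraries left out in turn its difference was between -0.93 and -0.38 with an adjusted p up to 0.319, and it passed in 5. The authors' deposited table gives -0.61 (adjusted p = 0.0691).

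DUSP6 went the other way in oncosphere culture of H2023. There it had 10.28 and 14.72 TPM in wild type and 40.49 and 41.04 TPM in those labelled knockout, a 3.26-fold higher mean and a difference of 1.65 with an SE of 0.19 (limma, adjusted p = 7.56e-04). A fit of these 4 libraries alone, in which limma called 0 of all genes and 2828 had an unadjusted p under 0.05, gave an adjusted p of 0.21, and the authors' deposited table gives 1.53 (adjusted p = 1.05e-06). In A549 oncosphere culture it had 27.43 and 25.84 TPM in wild type and 40.06 and 29.85 TPM in those labelled knockout, which did not pass. The knockout effect on DUSP6 was more positive in oncosphere than in normal culture, by 1.31 with an SE of 0.26 in A549 (limma, adjusted p = 0.0111) and by 1.57 with an SE of 0.26 in H2023. The H2023 value did not pass (limma, adjusted p = 0.126), in a contrast where 0.00549% of all genes, 1 gene, was called. Between the lines the effect on DUSP6 differed by 1.28 with an SE of 0.26 in oncosphere culture (limma, adjusted p = 0.00593).

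In normal culture the line differences of the feedback genes were less firm. They were 1.02 for DUSP6 and 1.32 for SPRY2 (limma, adjusted p = 0.0269 and 0.0154). The DUSP6 value was lost without A549 wild-type replicate 1 (1.06), A549 wild-type replicate 2 (0.98), A549 knockout replicate 2 (0.93), H2023 wild-type replicate 1 (0.89) or H2023 knockout replicate 2 (0.92), with limma adjusted p up to 0.0958. The SPRY2 value was lost without A549 wild-type replicate 1 (1.19), A549 knockout replicate 2 (1.31), H2023 wild-type replicate 2 (1.27) or H2023 knockout replicate 2 (1.16), with limma adjusted p up to 0.0682. SPRY4 in H2023 normal culture had 7.17 and 10.55 TPM in wild type and 5.35 and 5.41 TPM in those labelled knockout, which did not pass in limma but is called in the authors' deposited table (-0.72, adjusted p = 0.0287).

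Other genes of the pathway were taken from 7 lists of 51 genes, of which 48 were measured. In A549 normal culture 3 of these 48 were higher and 5 lower, which is 16.7% against 17.7% of all genes, with a median of -0.06 against -0.03 over all genes. On the log2(TPM + 1) scale the largest difference was that of CCND1, cyclin D1 and a growth-promoting target of ERK signalling, which fell from 181.22 and 156.53 to 65.33 and 47.96 TPM (-1.57, limma, adjusted p = 5.01e-04). ERRFI1, a cytoplasmic inhibitor of the EGFR kinase, fell from 81.5 and 90.93 to 29.95 and 27.95 TPM (-1.54, limma, adjusted p = 0.007). CBLB, a ubiquitin ligase that directs active receptors to degradation, rose from 4.96 and 6.28 to 17.79 and 17.28 TPM (1.49, limma, adjusted p = 0.00244). The Sprouty gene SPRY1 (-1.46), whose mean TPM was 6.33-fold lower against 2.98-fold for CCND1, the ERK-induced IER3 (-1.23) and the adaptor GRB2 (-0.31) were also lower, and the ERK-induced PHLDA1 (0.93) and ERK1 itself, MAPK3 (0.62), were higher. Of these genes GRB2 alone is not called in the authors' deposited table (-0.24, adjusted p = 0.214).

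In A549 oncosphere culture 5 of the 48 were higher and 3 lower, which is 16.7% against 20.7% of all genes. ERRFI1 fell again, from 83.32 and 91.21 to 20.32 and 7.77 TPM (-2.69, limma, adjusted p = 1.20e-04). DUSP5, a nuclear ERK phosphatase, rose from 11.71 and 15.49 to 45.53 and 44.73 TPM (1.67, limma, adjusted p = 1.01e-04). NRG1, a neuregulin that binds ERBB3, rose from 16.85 and 16.98 to 32.92 and 47.46 TPM (1.18, limma, adjusted p = 0.00395), in the same libraries in which its receptor was at 3.33 and 3.10 TPM. For NRG1 the authors' deposited table gives a smaller log2 fold change of 0.63 (adjusted p = 9.70e-04). The remaining calls were FOSL1 (1.30), PHLDA1 (1.21) and the adaptor SHC1 (0.63), which were higher, and the transcription factors ETV4 (-1.26) and FOS (-1.07), which were lower. In H2023 limma called 0 of the 48 in either culture, with 11 and 10 at an unadjusted p under 0.05, while the authors' deposited tables call 13 and 0. Over all genes limma called 3.00% in H2023 normal and 5.56% in H2023 oncosphere culture. The authors' deposited tables call 10.8% and 5.07% of the genes with an adjusted p.

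**Figure D3:**
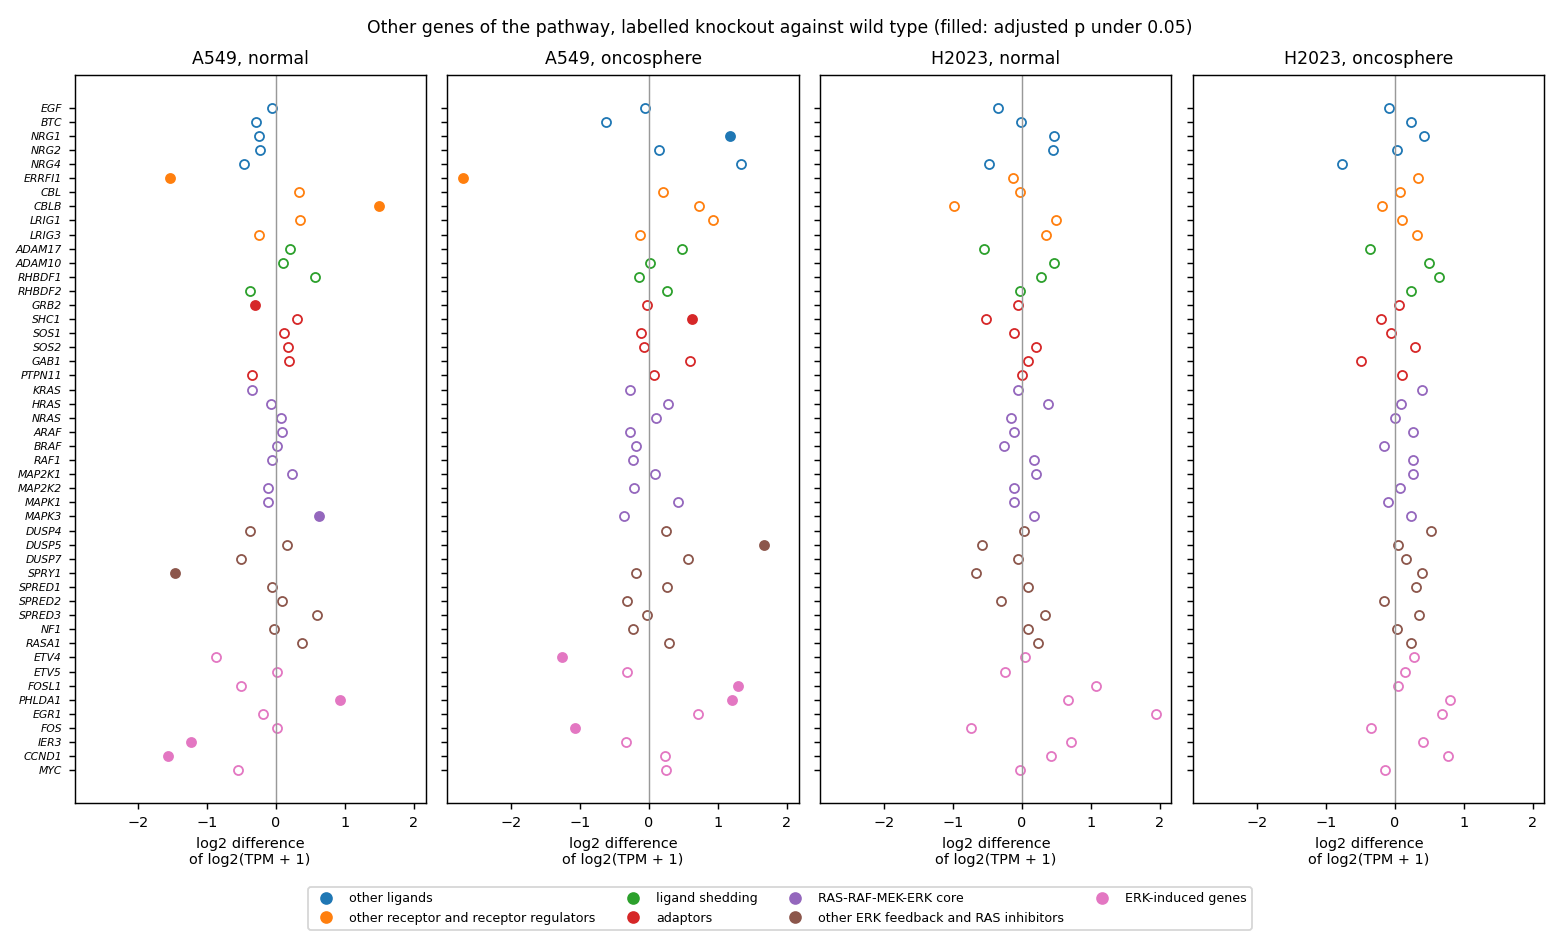
Difference between libraries labelled knockout and wild type for 48 other genes of the pathway, in units of log2(TPM + 1). Colours mark the 7 lists and filled points have an adjusted p under 0.05. There are 8 filled points in each A549 panel and 0 in the H2023 panels.

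Oncosphere culture was compared with normal culture within each line and genotype, which asks how the stem-cell-enriching condition, or the longer time that goes with it, alters these genes. EGFR was lower and DUSP6 higher in oncosphere culture in all 4 comparisons. SPRY4 was higher in 3 and ERBB3 in 3, AREG was lower in 3, and TGFA was called in A549 alone, as higher. Of the 10 genes 7, 6, 4 and 6 were called in A549 wild type, A549 labelled knockout, H2023 wild type and H2023 labelled knockout, against 41.5%, 22.4%, 27.4% and 32.5% of all genes. Those called higher were 19.1%, 11.4%, 5.17% and 9.76% of all genes in this order, and those called lower 22.4%, 11.0%, 22.2% and 22.7%. Libraries did not overlap for 9, 7, 8 and 9 of the 10, against 71.3%, 62.6%, 60.7% and 65.7% of all genes.

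The balance of directions in H2023 depended on the scaling. The median over all genes was -0.18 in H2023 wild type and -0.12 in H2023 labelled knockout, and centring each library on its median moved these by 0.24 and 0.16. Of the genes called in H2023 wild type 18.9% were higher, and 51.7% were with centred values. In H2023 labelled knockout the share went from 30% to 48.2%. Leaving mitochondrially encoded genes out of TPM, whose share was higher in oncosphere culture, moved the medians by 0.16 and 0.14. In A549 wild type it took the share of higher genes from 46% to 56.6%.

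Markers also moved with culture. Summed epithelial markers, mainly KRT8 and KRT18, were at 5230.19 to 6570.26 TPM in oncosphere culture of A549 wild type against 7416.84 to 7626.13 TPM in normal culture, and at 4994.65 to 7194.83 against 1450.09 to 2522.87 TPM in A549 labelled knockout. They were lower in H2023 oncosphere culture, at 3419.7 to 3445.66 against 5886.68 to 7298.87 TPM in wild type and at 6553.26 to 7086.59 against 9816.33 to 10676.66 TPM in the libraries labelled knockout. CD68 was at 117.45 to 178.89 TPM in A549 oncosphere wild type against 37.27 to 45.87 TPM in normal culture, and at 71.44 to 129.02 against 32.28 to 37.89 TPM in H2023 labelled knockout. In A549 labelled knockout (29.66 to 44.49 against 28.7 to 41.14 TPM) and H2023 wild type (30.72 to 89.13 against 34.63 to 39.4 TPM) it overlapped. Their part in the culture differences was not tested.

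**Figure D4:**
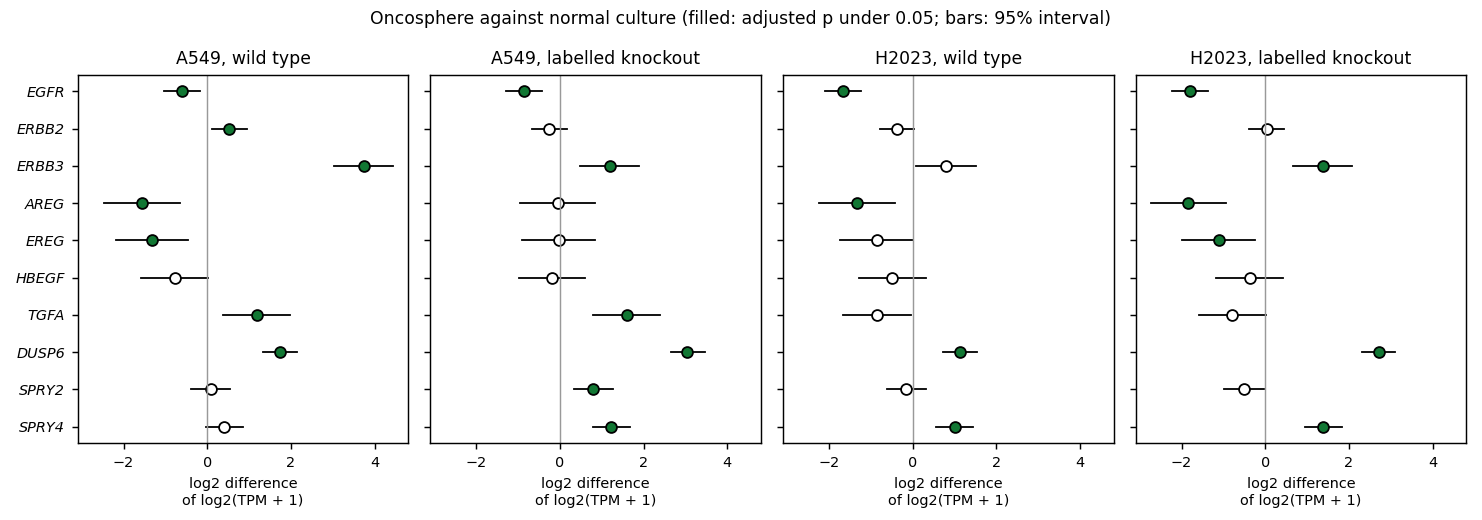
Difference between oncosphere and normal culture for the 10 genes, in units of log2(TPM + 1), in each line and genotype. Points are estimates, bars are 95% intervals and filled points have an adjusted p under 0.05; EGFR lies below 0 and DUSP6 above 0, both filled, in all 4 panels.

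EGFR was the one receptor lower in oncosphere culture throughout. In H2023 wild type it went from 51.53 and 68.72 to 15.54 and 20.81 TPM, and in H2023 labelled knockout from 80.45 and 61.45 to 20.77 and 18.47 TPM. These means were 3.31-fold and 3.62-fold lower, with differences of -1.67 and -1.79 and an SE of 0.20 each (limma, adjusted p = 1.44e-04 and 4.34e-05). In A549 wild type it went from 52.58 and 38.41 to 27.63 and 30.63 TPM, and in A549 labelled knockout from 51.07 and 43.36 to 26.65 and 24.42 TPM, with differences of -0.61 and -0.86 (limma, adjusted p = 0.0258 and 0.00808). The A549 wild-type call was lost without normal replicate 1 (-0.39, adjusted p = 0.225), oncosphere replicate 1 (-0.54, 0.126) or oncosphere replicate 2 (-0.68, 0.0547), and without mitochondrially encoded genes in TPM (-0.48, 0.0652). The A549 labelled-knockout call was lost without normal replicate 1 (-0.74, adjusted p = 0.071) or oncosphere replicate 2 (-0.80, 0.0536). In wild type the decrease was larger in H2023 than in A549, by -1.06 with an SE of 0.28 (limma, adjusted p = 0.0262), in a contrast where 14.1% of all genes were called. This was lost without A549 normal replicate 2 (-0.84), H2023 normal replicate 2 (-0.86), A549 oncosphere replicate 1 (-1.13), A549 oncosphere replicate 2 (-0.99) or H2023 oncosphere replicate 1 (-0.86), with limma adjusted p up to 0.0948, and with centred values (-0.85, 0.059).

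ERBB3 moved opposite to EGFR. In A549 wild type it rose from 4.19 and 8.64 to 104.37 and 84.09 TPM, 14.7-fold in the mean and 3.74 with an SE of 0.33 (limma, adjusted p = 3.74e-06). In A549 labelled knockout it rose from 0.94 and 0.77 to 3.33 and 3.10 TPM, which left it below wild type in normal culture. That call (1.19, limma, adjusted p = 0.021) was lost without normal replicate 1 (1.25), normal replicate 2 (1.12), oncosphere replicate 1 (1.15) or oncosphere replicate 2 (1.22), with adjusted p from 0.0716 to 0.104, and at a pseudocount of 4 (0.57, adjusted p = 0.162). In H2023 labelled knockout it rose from 11.23 and 6.50 to 29.69 and 19.05 TPM (1.37, limma, adjusted p = 0.00686), a call lost without normal replicate 2 (1.02, 0.0752) or oncosphere replicate 1 (1.07, 0.0646). H2023 wild type had 28.28 and 24.23 TPM in normal and 58.86 and 36.40 TPM in oncosphere culture and did not pass (0.80, limma, adjusted p = 0.0901). The wild-type change differed between the lines by -2.94 with an SE of 0.46 (limma, adjusted p = 0.00218).

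ERBB2 was called with culture in A549 wild type alone, where it went from 17.98 and 26.19 to 26.72 and 37.38 TPM, a narrow gap (0.52, limma, adjusted p = 0.0448). The call held only without A549 normal wild-type replicate 2, A549 oncosphere wild-type replicate 1 or either H2023 oncosphere wild-type library. Over the 16 libraries left out in turn the difference was between 0.26 and 0.78 with an adjusted p up to 0.371.

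AREG and EREG were both lower in oncosphere culture of A549 wild type and of H2023 labelled knockout. In A549 wild type AREG went from 119.38 and 72.33 to 35.24 and 27.13 TPM, and EREG from 76.75 and 41.65 to 27.77 and 17.30 TPM (-1.56 and -1.33, limma, adjusted p = 0.00989 and 0.0176). Both calls were lost without normal replicate 1 (-1.20 and -0.89, adjusted p = 0.0969 and 0.17) or oncosphere replicate 2 (-1.37 and -1.0, adjusted p = 0.0647 and 0.133). In A549 labelled knockout, already low, they had differences of -0.05 and -0.03, with 95% intervals of -0.96 to 0.85 and -0.90 to 0.83.

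In H2023 labelled knockout AREG went from 93.06 and 116.60 to 26.05 and 31.06 TPM (-1.84, limma, adjusted p = 0.0052), a call that held on leaving out each of the 16 libraries. In H2023 wild type it went from 74.32 and 54.44 to 15.05 and 40.37 TPM (-1.33, limma, adjusted p = 0.0333). That call was lost without normal replicate 1 (-1.11, adjusted p = 0.171), normal replicate 2 (-1.55, 0.0603) or oncosphere replicate 1 (-0.64, 0.273), with centred values (-1.09, 0.0889), without mitochondrially encoded genes in TPM (-1.10, 0.0905) and in a fit of the 8 H2023 libraries (0.0712). EREG in H2023 labelled knockout went from 12.11 and 12.83 to 5.02 and 5.44 TPM (-1.11, limma, adjusted p = 0.0488). Its difference was between -1.16 and -1.06 on leaving out any 1 library, but the adjusted p went up to 0.158 and the call was lost for 10 of the 16. It held without either A549 normal wild-type library, either H2023 normal wild-type library or either A549 oncosphere knockout library. It was also lost at a pseudocount of 4 (-0.84, adjusted p = 0.0744), without mitochondrially encoded genes in TPM (-0.93, 0.0974), with centred values (-0.96, 0.0848) and with no mean-variance trend (0.0551).

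TGFA was higher in oncosphere culture of A549, from 7.36 and 2.91 to 13.77 and 10.44 TPM in wild type and from 3.90 and 2.14 to 10.24 and 11.52 TPM in those labelled knockout. The differences were 1.18 and 1.60 (limma, adjusted p = 0.0216 and 0.00828). The wild-type call was lost without normal replicate 2 (0.64, adjusted p = 0.215) or oncosphere replicate 1 (1.00, 0.127), and the other without normal replicate 2 (1.28, 0.0826) or oncosphere replicate 2 (1.52, 0.0513). In H2023 TGFA had lower values in oncosphere culture, with differences of -0.86 in wild type and -0.79 in the libraries labelled knockout that did not pass. The wild-type change differed between the lines by -2.04 with an SE of 0.52 (limma, adjusted p = 0.0233), and this was lost without A549 normal replicate 2 (-1.49), H2023 normal replicate 2 (-1.82), A549 oncosphere replicate 1 (-1.86) or H2023 oncosphere replicate 1 (-1.65), with adjusted p from 0.0701 to 0.0821. HBEGF did not pass in any culture comparison.

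DUSP6 was higher in oncosphere culture in each line and genotype. It rose from 7.00 and 7.47 to 27.43 and 25.84 TPM in A549 wild type and from 3.56 and 3.03 to 40.06 and 29.85 TPM in A549 labelled knockout, 3.68-fold and 10.6-fold in the means. In H2023 it rose from 4.54 and 5.61 to 10.28 and 14.72 TPM in wild type and from 4.98 and 5.81 to 40.49 and 41.04 TPM in those labelled knockout, 2.46-fold and 7.56-fold. No oncosphere library lay below any normal-culture library of either line. The differences were 1.75, 3.05, 1.14 and 2.71 with an SE of 0.19 each (limma, adjusted p = 1.76e-05, 2.13e-06, 9.55e-04 and 3.13e-06), and all 4 calls held on leaving out each of the 16 libraries.

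SPRY4 was higher in oncosphere culture in 3 of the 4 comparisons. It rose from 5.33 and 3.34 to 12.60 and 10.02 TPM in A549 labelled knockout, from 7.17 and 10.55 to 19.16 and 17.87 TPM in H2023 wild type and from 5.35 and 5.41 to 16.29 and 15.11 TPM in H2023 labelled knockout. The differences were 1.22, 1.01 and 1.39 with an SE of 0.20 each (limma, adjusted p = 0.00108, 0.00338 and 3.05e-04), and each held on leaving out each of the 16 libraries. In A549 wild type it had 7.45 and 7.06 TPM in normal and 9.80 and 10.09 TPM in oncosphere culture and did not pass (0.41, limma, adjusted p = 0.13). SPRY2 was called in A549 labelled knockout alone, from 2.65 and 2.58 to 5.84 and 4.73 TPM (0.79, limma, adjusted p = 0.0192). This was lost without normal replicate 1 (0.81, adjusted p = 0.0777), normal replicate 2 (0.78, 0.0871) or oncosphere replicate 1 (0.66, 0.134).

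Of the 48 other genes of the pathway, 12 were higher and 11 lower in oncosphere culture in A549 wild type, and 3 were higher and 13 lower in H2023 wild type. These are 47.9% and 33.3% of the 48, against 41.5% and 27.4% of all genes. With centred values the H2023 counts were 3 higher and 6 lower, and without mitochondrially encoded genes in TPM 3 and 5, while the A549 counts were 12 and 11 and 14 and 11. In both lines SPRY1, a paralogue of SPRY2 and SPRY4, was higher (1.35 in A549 and 1.49 in H2023), as were LRIG1, a membrane protein that restrains the receptors (1.39 and 1.31), and FOS (3.02 and 1.41). CCND1 (-1.38 and -1.28), the AP-1 gene FOSL1 (-2.86 and -2.03) and NRG1 (-2.06 and -0.79) were lower in both, although the H2023 call of NRG1 was lost with centred values (-0.55, limma, adjusted p = 0.118) and without mitochondrially encoded genes (-0.56, 0.106). FOSL1 in A549 wild type went from 66.63 and 25.35 to 5.26 and 4.4 TPM. FOS there went from 3.71 and 2.97 to 32.36 and 35.84 TPM. In limma the adjusted p of these 6 genes lay between 2.82e-06 and 0.0271 over both lines. Of the other large differences, MYC was lower (-1.35) and the ligand BTC, betacellulin, higher (1.31) in A549, and ERRFI1 (-1.23), PHLDA1 (-0.96), the ubiquitin ligase CBL (-0.78) and the ligand-shedding protease ADAM10 (-0.66) were lower in H2023. That of ADAM10 was lost with centred values (-0.42, limma, adjusted p = 0.075) and without mitochondrially encoded genes (-0.42, 0.0855), and that of ERRFI1 in the latter (-0.99, 0.0542). In A549 the calls also included SPRED3 (1.58), a RAS inhibitor, and DUSP7 (-1.16), an ERK phosphatase.

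The levels of the 2 lines were compared within each culture and genotype. 41.5% of all genes were called between wild types in normal culture, 43.0% between libraries labelled knockout in normal culture, 47.8% between wild types in oncosphere culture and 45.5% between libraries labelled knockout in oncosphere culture, and 5, 6, 8 and 4 of the 10 genes were. In the same order 26.6%, 29.0%, 23.4% and 24.5% of all genes were higher in H2023, and 14.9%, 14.0%, 24.4% and 21.0% were lower. Libraries of the lines did not overlap for 6, 10, 8 and 10 of the 10, against 70.7%, 73.8%, 72.0% and 72.6% of all genes. With centred values the medians of all genes moved by -0.22 and -0.24 in the 2 normal-culture comparisons, and the share of higher among called genes went from 64.1% to 41.8% and from 67.5% to 43.4%.

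Between wild types the clearest line difference was in EREG. It had 76.75 and 41.65 TPM in A549 and 10.85 and 5.89 TPM in H2023 in normal culture, and 27.77 and 17.30 against 3.57 and 4.41 TPM in oncosphere culture. These differences, H2023 minus A549, were -2.67 and -2.21 with an SE of 0.40 each (limma, adjusted p = 2.26e-04 and 7.04e-04). AREG, in contrast, did not pass between wild types in either culture (-0.54 and -0.31, 95% intervals of -1.45 to 0.37 and -1.22 to 0.60). Between the libraries labelled knockout in normal culture it was the reverse, with AREG 12.7-fold higher in H2023 (3.51, limma, adjusted p = 4.15e-05) and EREG not called (0.34).

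The order of ERBB3 between the lines depended on culture. In normal-culture wild type it was higher in H2023, with 28.28 and 24.23 against 4.19 and 8.64 TPM (1.94, limma, adjusted p = 5.44e-04). In oncosphere wild type it was higher in A549, with 104.37 and 84.09 against 58.86 and 36.40 TPM (-1.0, limma, adjusted p = 0.0238), although this was lost without A549 replicate 1 (-0.85, 0.132) or H2023 replicate 2 (-0.66, 0.187). Between the libraries labelled knockout ERBB3 was higher in H2023 in both cultures (2.37 and 2.56, limma, adjusted p = 1.23e-04 and 6.25e-05). DUSP6 was lower in H2023 in oncosphere wild type (-1.05, limma, adjusted p = 6.16e-04) and not called between the oncosphere libraries labelled knockout (0.23). In oncosphere wild type TGFA (-1.63) and SPRY2 (-1.07) were also lower and SPRY4 (0.83) higher in H2023 (limma, adjusted p = 0.00326, 0.00151 and 0.00514), and all 3 held on leaving out each of the 16 libraries.

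The remaining calls between the lines were as follows. HBEGF was higher in H2023 between wild types, with 4.43 and 9.95 against 2.74 and 2.29 TPM in normal culture and 3.03 and 6.50 against 0.95 and 1.14 TPM in oncosphere culture (1.14 and 1.43, limma, adjusted p = 0.0258 and 0.00681). The former was lost without A549 replicate 1 (1.23), A549 replicate 2 (1.04) or H2023 replicate 2 (0.63), and with centred values (0.92, limma, adjusted p = 0.064). The latter was lost without H2023 replicate 2 (0.98). SPRY2 was lower in H2023 in normal-culture wild type (-0.84, limma, adjusted p = 0.00796), a call lost without A549 replicate 1 (-0.70, 0.0654). It was also lower between the oncosphere libraries labelled knockout (-0.82, limma, adjusted p = 0.0082), which was lost without A549 replicate 1 (-0.69) or H2023 replicate 2 (-0.72). ERBB2 was higher in H2023 between the oncosphere libraries labelled knockout, with 37.90 and 34.77 against 18.11 and 18.20 TPM (0.96, limma, adjusted p = 0.00146), and this held on leaving out each of the 16 libraries. TGFA was higher in H2023 between the normal-culture libraries labelled knockout, with 12.08 and 12.52 against 3.90 and 2.14 TPM (1.76, limma, adjusted p = 0.00223), which held likewise. AREG was higher in H2023 between the oncosphere libraries labelled knockout (1.72, limma, adjusted p = 0.00513), a call lost without A549 replicate 2 (1.19, 0.0644). EGFR was lower in H2023 in oncosphere wild type (-0.66, limma, adjusted p = 0.0152), which was lost without A549 replicate 2 (-0.59) or H2023 replicate 1 (-0.46). Between wild types in normal culture ERBB2 was higher in H2023 (0.51, limma, adjusted p = 0.048). So were EGFR (0.57), ERBB2 (0.68) and DUSP6 (0.57) between the normal-culture libraries labelled knockout (limma, adjusted p = 0.0345, 0.0121 and 0.0251). These normal-culture calls were lost with centred values (0.30, 0.33, 0.44 and 0.33 in this order, limma, adjusted p from 0.0864 to 0.245). They were also lost for 11, 3, 2 and 2 of the 16 libraries left out in turn.

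Ordered by group mean, EGFR was highest in the 4 normal-culture groups, from 71 ± 13.44 TPM in H2023 labelled knockout to 45.5 ± 10.02 TPM in A549 wild type (SD, n = 2 each). It was lowest in H2023 oncosphere culture, at 19.6 ± 1.63 TPM in those labelled knockout and 18.2 ± 3.73 TPM in wild type (SD, n = 2 each), which overlapped. ERBB3 ran from 94.2 ± 14.34 TPM in A549 oncosphere wild type, followed without overlap by 47.6 ± 15.88 TPM in H2023 oncosphere wild type, down to 0.855 ± 0.12 TPM in A549 normal labelled knockout (SD, n = 2 each). DUSP6 was highest in H2023 oncosphere labelled knockout, at 40.8 ± 0.39 TPM, and lowest in A549 normal labelled knockout, at 3.29 ± 0.37 TPM (SD, n = 2 each). AREG was highest in H2023 normal labelled knockout, at 104.8 ± 16.65 TPM, and in A549 normal wild type, at 95.9 ± 33.27 TPM, which overlapped, and lowest in both A549 groups labelled knockout (SD, n = 2 each). Precision was limited in several genes, since replicates of a group differed by 2.66-fold for EREG in A549 oncosphere labelled knockout, 2.68-fold for AREG in H2023 oncosphere wild type and 2.53-fold for TGFA in A549 normal wild type.

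Within a line the 8 libraries gave descriptive correlations of log2(TPM + 1), which share the groups and are given with no test. AREG and EREG correlated with r = 0.98 in A549 and 0.93 in H2023. DUSP6 and SPRY4 did so with r = 0.94 and 0.71, and DUSP6 and EGFR with r = -0.91 and -0.79. ERBB3 and TGFA had r = 0.60 in A549 and -0.95 in H2023. Over 13575 genes with a mean of at least 1 TPM in both lines, those most like each gene were chosen by the lower of the 2 within-line correlations. For EGFR these were PEAR1 (r = 0.992 and 0.993) and GLI2 (0.966 and 0.967), for ERBB3 ENPP1 (0.964 and 0.952) and NEB (0.993 and 0.935), and for DUSP6 FICD (0.962 and 0.957) and TSPAN31 (0.955 and 0.971). For AREG they were TMEM126A and STYXL1, for EREG ZNF706 and NBN, and for SPRY4 TMEM205 and JUP, all with r of at least 0.935. Likeness was lower for TGFA (ZMIZ2 and ITGA6), HBEGF (UBE2M and MOCS3), ERBB2 (FAM168A and NLRX1) and SPRY2 (S100A16 and MAILR), with a lower r of 0.834 to 0.883.

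**Figure D5:**
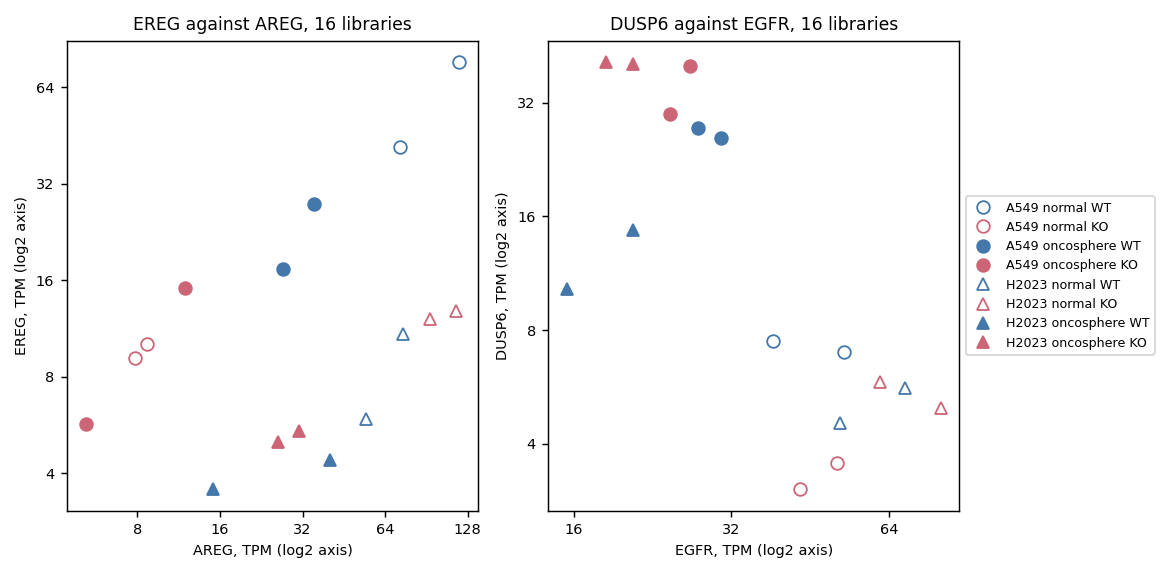
EREG against AREG (left) and DUSP6 against EGFR (right), as TPM on log2 axes, 1 point per library. Circles are A549 and triangles H2023, open points are normal and filled points oncosphere culture, blue is wild type and red labelled knockout. Within each line EREG rises with AREG (r = 0.98 and 0.93) and DUSP6 falls as EGFR rises (r = -0.91 and -0.79).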

How the data were processed

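RNA sequencing of 16 libraries, 2 in each of 8 groups, was analysed from 4 tables deposited by the authors, 1 per line and culture. Libraries were prepared with the stranded TruSeq mRNA kit after ReliaPrep extraction of RNA, per the labels' protocols. HISAT2, StringTie and the build GRCh38 are named in the submitters' processing notes. The TPM values per library are the authors'. The tables also hold the authors' mean normalised count, a signal whose scale is that of their size factors, a log2 fold change with its standard error, a score (the test statistic) and a p-value, raw and adjusted, in columns named as DESeq2 names them, per the file headers. That score and the fold change have opposite signs in all 18227 genes. Among genes called in the authors' tables, the fold change had the sign of the TPM difference in 3635 of 3639 in A549 normal culture. It did in 3627 of 3628 in A549 oncosphere, 1665 of 1665 in H2023 normal and 816 of 816 in H2023 oncosphere culture. The sign of the authors' deposited fold change was therefore taken as the direction. Each table has 18361 rows. Where an identifier was repeated (119 cases, each with the same values), its first row was used. Each library's line was taken from its table's name, and 0 columns belonged to no labelled library.

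From TPM, log2(TPM + 1) was tested with limma 3.58.1 in R 4.3.3 (moderated, with a mean-variance trend, two-sided, 8 residual degrees of freedom), with Benjamini-Hochberg adjustment over all genes, a threshold of 0.05 and no filter on low values. Raw counts were not used here. The test was checked on simulated data with independent noise in each library. That check does not cover deviations shared by same-numbered libraries. Alternatives were pseudocounts of 0.1 and 4, a mean of at least 1 TPM, TPM without mitochondrially encoded genes, centring each library on its median, no trend, a replicate block, smaller fits, the authors' deposited tables and leaving out each library. Differences between 2 of the authors' deposited fold changes were tested here with a normal z-test that took them as independent, with Benjamini-Hochberg adjustment. Named were the 10 genes, up to 10 called genes of the pathway lists with the largest difference in each knockout and wild-type culture comparison, the 2 genes most like each of the 10, and ZC3H12A. The members and lists were chosen with earlier results of these data known. Promoter sequences are RefSeq's, from GRCh38.p14. They were searched with 5 motifs.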

Additional observations from a re-analysis of the deposited data

Results flagged for a closer look

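14 effects on the 10 genes differed between lines or cultures by a limma test of the difference itself. In A549 the knockout effect differed between cultures (oncosphere minus normal) for ERBB3, by -2.56, and for DUSP6, by 1.31. In that contrast 9.71% of all genes were called, 5.61% as positive and 4.10% as negative. Between the lines (H2023 minus A549) the knockout effect differed in normal culture for AREG, by 4.05, for EREG, by 3.01, for DUSP6, by 1.02, and for SPRY2, by 1.32. In oncosphere culture it differed for ERBB2, by 1.35, for ERBB3, by 3.56, for AREG, by 2.03, and for DUSP6, by 1.28. Each of these 8 line differences is positive, and AREG and DUSP6 appear in both cultures. Those of a culture come from the same libraries, so their signs are not independent. Over all genes 12.1% were called in normal culture, 6.61% as positive and 5.46% as negative. In oncosphere culture 16.3% were, 9.37% as positive and 6.90% as negative. The change from normal to oncosphere culture in wild type differed between the lines for EGFR, by -1.06, for ERBB2, by -0.90, for ERBB3, by -2.94, and for TGFA, by -2.04. For this change 14.1% of all genes were called, 3.79% as positive and 10.3% as negative.

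Of these 14, the call held on leaving out each of the 16 libraries for ERBB3 and DUSP6 between the A549 cultures, AREG and EREG between the lines in normal culture, ERBB2, ERBB3 and DUSP6 between the lines in oncosphere culture, and ERBB3 in the culture change. For ERBB2 in the culture change (limma, adjusted p = 0.0456) it was lost for 13 of the 16, with an adjusted p up to 0.168, and it held without A549 normal wild-type replicate 2, A549 oncosphere wild-type replicate 1 or H2023 oncosphere wild-type replicate 1. For EGFR in the culture change it was lost without A549 normal replicate 2 (-0.84), H2023 normal replicate 2 (-0.86), A549 oncosphere replicate 1 (-1.13), A549 oncosphere replicate 2 (-0.99) or H2023 oncosphere replicate 1 (-0.86). In this contrast 26.8% of the called genes of the whole set had a positive difference, and 55.7% did with values centred on the median of each library.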

How the results depend on the processing

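Of 71 calls on the 10 genes, 37 held on leaving out each library and 36 under every alternative, and no call changed direction. The culture change by line gave 4 calls and 2 with centred values. Without 1 library it gave 1 to 3, the knockout effect 9 to 12 (11 with all libraries), the culture effect 18 to 22 (23), the line effect 19 to 23 (23), the knockout effect by culture 2 to 3 (2) and by line 6 to 9 (8). For the other pathway genes the knockout effect gave 16 calls, 11 to 22 without 1 library, 25 with the replicate block and 37 in the authors' deposited tables. The labels do not say whether same-numbered libraries were handled together. The r of their deviations over 14823 genes was 0.46 between H2023 oncosphere wild type and labelled knockout. In the other comparisons of 2 groups it lay between -0.06 and 0.16. The replicate block gave 14, 26, 22, 2, 11 and 4 calls in the knockout, culture, line, knockout by culture, knockout by line and culture by line results. It added EREG (adjusted p = 0.0211) and HBEGF (0.0391) in A549 oncosphere and TGFA (0.0423) in H2023 oncosphere culture to the knockout effect in limma. Over all genes the knockout calls were 3233, 3780, 546 and 1014 (A549 normal, A549 oncosphere, H2023 normal, H2023 oncosphere). A limma fit of only the 4 libraries of each comparison gave 1971, 2413, 0 and 0, with 3314 and 2828 at an unadjusted p under 0.05 in H2023, and the authors' deposited tables give 3639, 3628, 1665 and 816. For the knockout effect by culture in H2023 limma called 1 gene (1270 at an unadjusted p under 0.05) and 0 to 10 under the other limma settings. The z-test made here on the authors' deposited fold changes called 71. The share of higher among called genes went from 26.8% to 55.7% with centred values and 38% without mitochondrial genes in the culture change by line, from 57.6% to 47.3% with centred values in the knockout effect by line in oncosphere culture, and from 57.7% to 47.6% without mitochondrial genes in the knockout effect by culture in A549. TPM gives no depth for a single library, so no limit for a low value could be set, and 2 libraries per group limit the precision.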

Other observations

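The 9 other feedback inhibitors of ERK and RAS on the pathway lists (DUSP4, DUSP5, DUSP7, SPRY1, SPRED1, SPRED2, SPRED3, NF1 and RASA1) were counted in the culture comparisons too, a list chosen with earlier results known. In the libraries labelled knockout 5 were higher and 0 lower in oncosphere culture in A549, and 3 were higher and 0 lower in H2023 (limma, adjusted over all genes). In wild type 3 were higher and 2 lower in A549, and 1 was higher and 0 lower in H2023. The share of all genes called in these comparisons was 22.4% in A549 labelled knockout, 32.5% in H2023 labelled knockout, 41.5% in A549 wild type and 27.4% in H2023 wild type. SPRY1 had 0.73 and 0.27 TPM in A549 normal labelled knockout and 9.14 and 7.39 TPM in oncosphere labelled knockout. In H2023 labelled knockout it had 2.38 and 3.08 TPM in normal and 24.51 and 17.41 TPM in oncosphere culture. It was named for these values after they were seen. Among the 5 other ligands measured, EGF was listed between 0.19 and 1.2 TPM in the A549 libraries and between 3.14 and 7.21 TPM in the H2023 libraries, so that no A549 library reached the lowest H2023 library. NRG4 in H2023 normal culture had replicates of 5.75 and 26.49 TPM in the libraries labelled knockout and of 18.1 and 17.87 TPM in wild type. It was not called there in limma, while the authors' deposited table gives a log2 fold change of -1.22 (adjusted p = 5.10e-05).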
